A study of Mus musculus with 6 samples.

Results

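The proteasome is the barrel-shaped protease that degrades proteins tagged with ubiquitin. Its 20S core is built from rings of alpha and beta subunits, and the regulatory particle that caps it holds a ring of ATPases, which unfold the substrate, together with the further base and lid subunits that bind and strip the ubiquitin chain. In blood cells exposed to interferon, the catalytic beta subunits Psmb5, Psmb6 and Psmb7 are exchanged for Psmb8, Psmb9 and Psmb10, which gives the immunoproteasome that makes peptides for MHC class I. Maturing erythroblasts lean on the ubiquitin and proteasome system to clear proteins while haemoglobin accumulates.

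The genes described here were all those on the array whose name has the form Psm, a letter from a to g and a number. This rule found 62 probes of 49 genes among the 55681 probes and 34821 names on the array. They fall into 8 alpha ring genes (Psma), 8 constitutive beta ring genes (Psmb1 to Psmb7 and Psmb11), 3 immunoproteasome genes (Psmb8, Psmb9 and Psmb10), 6 ATPases (Psmc), 14 further base and lid genes and their chaperones (Psmd), 4 activators (Psme), 4 assembly factors (Psmg) and the inhibitor Psmf1. Psmc3ip also has a name of this form, but it encodes a meiotic recombination factor, so it was kept apart from these classes. It is still included in the counts over all members.

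The arrays came from 3 P38α+/- and 3 P38α-/- mice on a C57Bl/6 background. Both genotypes carried Mx1-Cre, a recombinase driven by an interferon-inducible promoter, over floxed P38α (fl/+ or fl/fl), and both received 3 PolyIC injections at 6 to 8 weeks of age followed by 6 weeks of rest. Each mouse was then given 1 injection of phenylhydrazine (PHZ), which lyses red cells, and CD71highTer119+ erythroblasts were sorted from the bone marrow on day 4. The controls were thus heterozygous mice that had also been exposed to Cre and PolyIC, and the comparison asks how the erythroblast transcriptome in recovery from anemia differed once the second P38α allele was deleted.

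One 1-colour Agilent array was hybridised per mouse, with 3 arrays per genotype. P38α-/- array 3 was alone on its slide, and the other 5 arrays shared 1 slide. In P38α+/- arrays 1, 2 and 3, 53.0%, 38.2% and 36.8% of the probes stood well above background. The P38α-/- arrays had 28.9%, 35.9% and 35.1%, each lower than any P38α+/- array. Whether this bears on the fold changes was not tested. Signals are given as relative log2 signal, for which each array was centred on its 75th percentile. That percentile was taken over 15527 probes, those that stood well above background on every one of the 6 arrays. A value compares arrays for 1 probe and says nothing of how abundant a gene is beside another. The targeted gene, Mapk14 (P38α), was not lower in the arrays labelled P38α-/-. Its brighter probe differed by 0.54 ± 0.19 (log2, SE, limma adjusted p = 0.187) and its dimmer probe by 0.01 ± 0.42 (adjusted p = 0.990). Where these probes lie relative to the deleted part of the gene is not given in the sources used here, so they check nothing, and the genotypes below are those of the labels. By genomic PCR and immunoblot, the study reported the locus excised and no P38α protein in sorted P38α-/- erythroblasts after PolyIC. Whether those were the mice of these arrays is not stated.

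Of the 49 genes, 47 had a probe well above background on all 6 arrays and were tested. The other two were Psma8, a testis alpha subunit with 0 arrays well above background, and Psmb11, the thymic catalytic subunit that was well above background on 2 arrays. The threshold combined a limma adjusted p no higher than 0.05 with a fold of 2 or more. Among the 47 tested genes 0 passed it, against 0.170% of the 14149 genes tested (limma, Benjamini-Hochberg). At an unadjusted p of at most 0.05, 3 of the 47 remained, which were Psmb5 and Psmd5 on the higher side and Psmb8 on the lower side of the arrays labelled P38α-/-. That was 6.38% of the tested members, where 20.1% of all tested genes reached the same p, 4.90% on the higher side and 15.2% on the lower side. All 47 members were well above background on all 6 arrays, as were 11982 of the 14149 genes. The other tested genes entered through all 3 arrays of 1 genotype. Shares of all tested genes, here and below, include them and so are not matched to the members. The smallest adjusted p of any member probe was 0.157.

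With the scaling used here, the members stood near 0 as a group. The median log2 fold change of P38α-/- against P38α+/- was 0.03 over the 47 members and -0.14 over all 14149 tested genes. A fold change between -0.5 and 0.5 on the log2 scale was found for 43 members, or 91.5%. Over all tested genes that share was 70.4%, and over the genes well above background on all 6 arrays, as all 47 members were, it was 78.7%. The members outside this range were Psmb8, Psmb9, Psmb10 and the assembly factor Psmg4, and all of them were on the lower side.

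**Figure D1:**
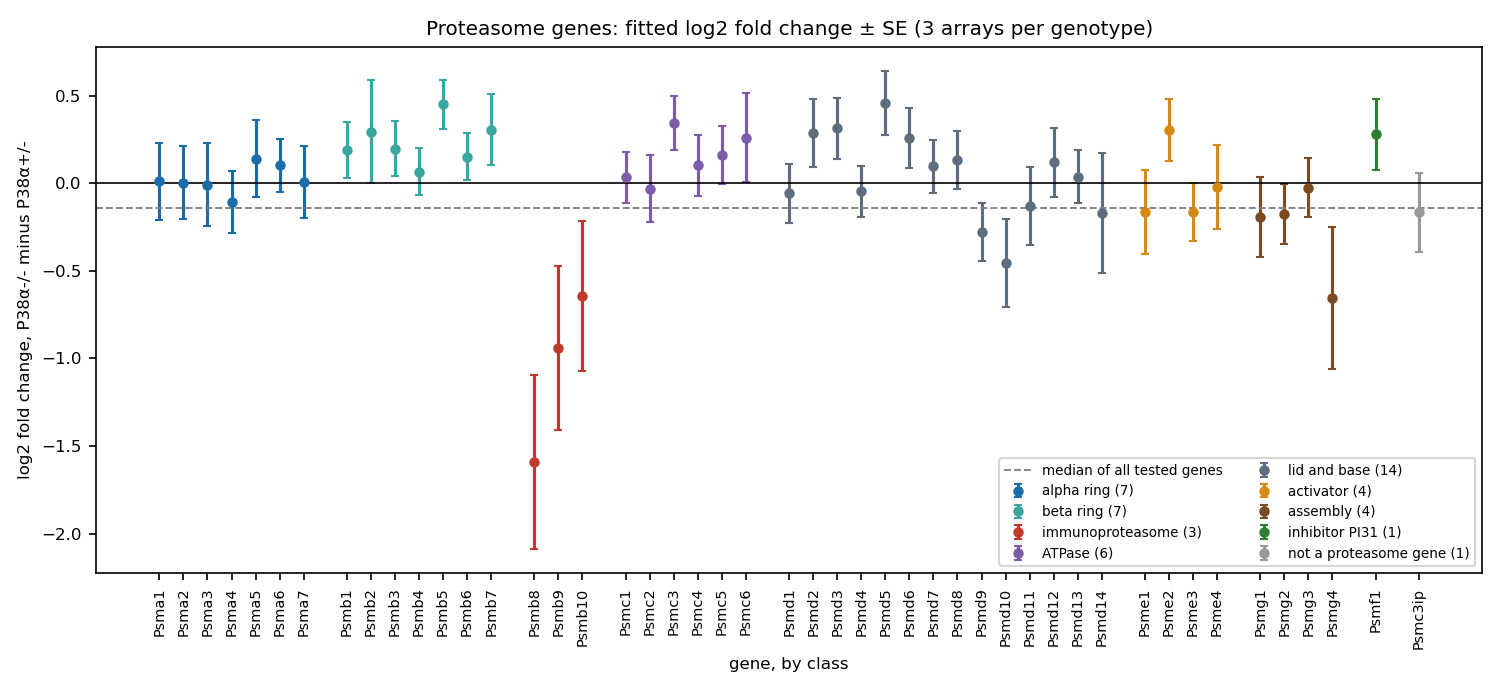
Fitted log2 fold change (P38α-/- minus P38α+/-) of the 47 tested genes by class, with bars of 1 SE and 3 arrays per genotype. The dashed line is the median of all tested genes at -0.14. The immunoproteasome genes lie between -1.59 and -0.64, and the constitutive beta ring genes between 0.07 and 0.45.

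Probe sequences are shown for Psmb8 and Psmb5, which had the lowest and the highest fold change of the core subunits, to show how the pair is told apart on the array. For Psmb5 this is the dimmer of its probes (fold change 0.50), and the brighter one, used for the gene below, lies elsewhere. Psmb8 (LMP7) is the interferon-induced counterpart of Psmb5, the chymotrypsin-like subunit, and these 60-base probes have related sequences. In the best ungapped alignment 31 of 50 aligned bases were identical, and these are in capitals. The positions are those of the array files, in mm9, with Psmb8 at chr17:34337771-34337830 on the plus strand and Psmb5 at chr14:55233161-55233220 on the minus strand.
Psmb8: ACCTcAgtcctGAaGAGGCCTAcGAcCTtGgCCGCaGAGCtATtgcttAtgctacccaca
Psmb5: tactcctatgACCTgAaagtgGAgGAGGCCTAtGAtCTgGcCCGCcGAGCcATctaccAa
The other 19 of the 50 aligned positions differ.

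Psmb8 and Psmb9 had the lowest fold changes of the family, and Psmb10 followed after the assembly factor Psmg4. For Psmb8 the relative log2 signal was -1.95, -1.29 and -3.26 in P38α+/- arrays 1, 2 and 3 and -3.42, -3.86 and -4.01 in the arrays labelled P38α-/-. Every P38α-/- array was below every P38α+/- array, and P38α+/- array 3 lay nearer to the P38α-/- arrays than to the other two of its genotype. The log2 fold change was -1.59 ± 0.50 (SE), a 3.01-fold lower signal, with a limma adjusted p of 0.160. Psmb8 was the one member gene whose P38α-/- arrays all lay below the P38α+/- arrays, which is 2.13% of the 47 against 19.7% of all tested genes.

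Psmb9 (LMP2), the counterpart of Psmb6, read -1.29, -0.76 and -2.58 in P38α+/- against -2.19, -2.50 and -2.77 in P38α-/-. Its groups overlapped, since P38α+/- array 3 lay below P38α-/- arrays 1 and 2. The fold change was -0.94 ± 0.47 (log2, SE, limma adjusted p = 0.303). Psmb10 (MECL-1), the counterpart of Psmb7, read -0.47, -0.32 and -1.69 against -1.06, -1.33 and -2.01, with the same overlap, and its fold change was -0.64 ± 0.43 (log2, SE, limma adjusted p = 0.436). P38α+/- array 3 was the lowest of its genotype for all 3 genes, and P38α-/- array 3, alone on its slide, was the lowest of all 6 arrays. Without P38α-/- array 3 the fold changes were -1.47 for Psmb8, -0.80 for Psmb9 and -0.37 for Psmb10.

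Averaged over the 3 genes, the relative log2 signal was -1.51 ± 0.89 in P38α+/- and -2.57 ± 0.36 in P38α-/- (SD, n = 3 arrays each), a difference of -1.06. The difference was -1.56 without P38α+/- array 3 and -0.70 without P38α+/- array 2. The fold change of Psmb9 was -1.46 without the former and -0.55 without the latter. For each of the 3 genes the fold change was below 0 under every scaling and every omission of an array.

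The fold changes of the constitutive catalytic subunits lay above 0, though 0 of these 3 genes passed the threshold and they were not tested against the immunoproteasome genes. Psmb5 read 3.04, 3.17 and 3.19 in P38α+/- and 3.65, 3.54 and 3.56 in P38α-/-. All 3 P38α-/- arrays were above all 3 P38α+/- arrays, and within each genotype the arrays lay close together. The fold change was 0.45 ± 0.14 (log2, SE, limma adjusted p = 0.157), which is 1.37-fold. A dimmer second probe, the one printed above, read 1.40, 0.92 and 1.08 against 1.92, 1.36 and 1.61 and gave 0.50 ± 0.22 (log2, SE, limma adjusted p = 0.251), with P38α+/- array 1 just above P38α-/- array 2.

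Psmb6, the caspase-like subunit, read 2.55, 2.55 and 2.65 in P38α+/- and 2.74, 2.72 and 2.74 in P38α-/-. The groups did not overlap, but the fold change was 0.15 ± 0.13 (log2, SE, limma adjusted p = 0.562). Psmb7, the trypsin-like subunit, read 1.22, 0.68 and 0.97 against 1.46, 1.07 and 1.26, and the groups overlapped. Its fold change was 0.31 ± 0.20 (log2, SE, limma adjusted p = 0.427). The mean of the 3 genes was 2.23 ± 0.08 in P38α+/- and 2.53 ± 0.09 in P38α-/- (SD, n = 3 arrays each).

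**Figure D2:**
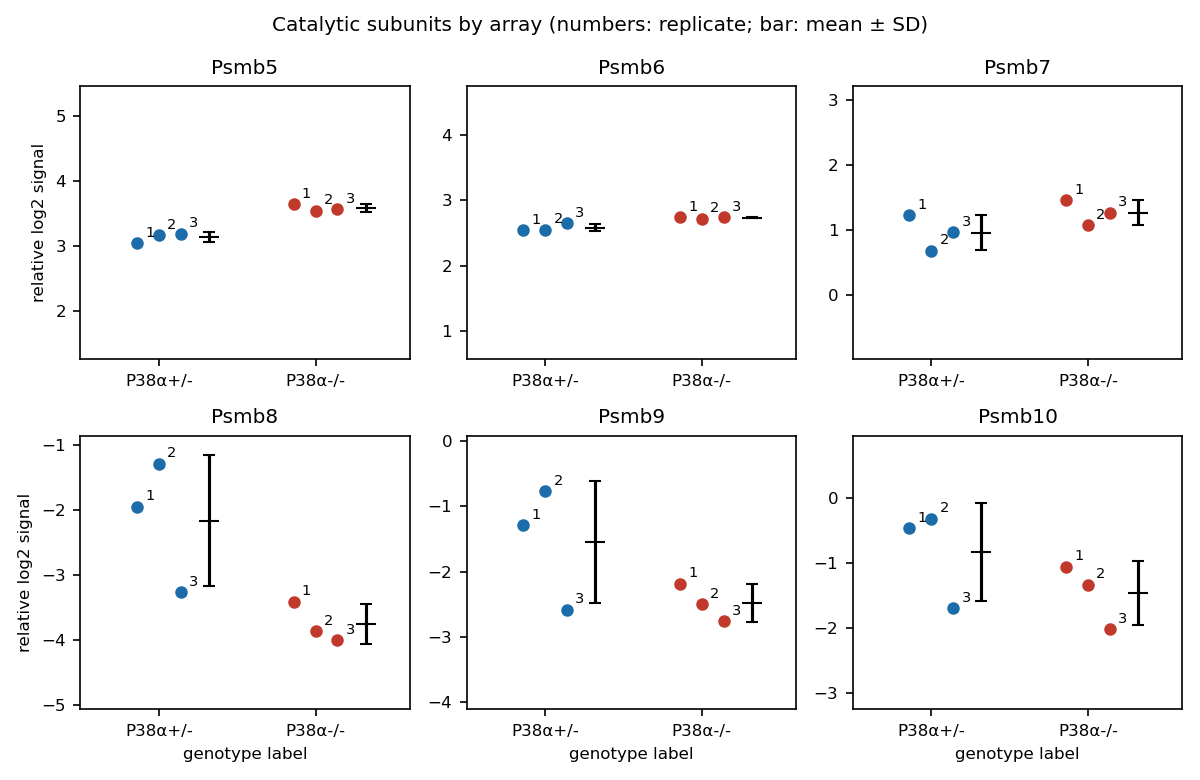
Relative log2 signal of the constitutive catalytic genes (upper row) and their immunoproteasome counterparts (lower row) in each array, numbered by replicate, with the mean and SD per genotype and the same span of the axis in every panel. Psmb5 and Psmb6 lie close together within a genotype while Psmb7 spreads and overlaps, and in the lower row P38α+/- array 3 is the lowest of its genotype for all 3 genes.

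The rest of the beta ring lay on the same side as Psmb5. All 7 tested genes of the ring were above 0, with a median log2 fold change of 0.20 and a range from 0.07 to 0.45. The lowest was Psmb4, a structural subunit, which read 3.22, 3.24 and 3.18 against 3.31, 3.26 and 3.28. Its P38α-/- arrays were all higher, by 0.07 ± 0.13 (log2, SE, limma adjusted p = 0.818). Psmb1, Psmb2 and Psmb3 differed by 0.19, 0.29 and 0.20, each with overlapping groups. The median of the ring was above that of all tested genes under every scaling, by 0.12 to 0.34.

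The alpha ring, through which substrates enter the core, was flat. The 7 tested genes had a median log2 fold change of 0.01, from -0.11 to 0.14, and the groups overlapped for all 7. Psma5 was the highest and read 0.70, 0.98 and 1.26 in P38α+/- and 0.89, 1.41 and 1.06 in P38α-/- (0.14 ± 0.22, log2, SE, limma adjusted p = 0.759). Psma4 was the lowest and read -0.64, -0.56 and -0.29 against -0.80, -0.52 and -0.49 (-0.11 ± 0.17, log2, SE, limma adjusted p = 0.770). Both genes spread more within a genotype than between the genotypes.

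The alpha ring genes shared an order over the arrays, in part with the regulatory particle. Replicate 1 was the lowest array of both genotypes for 6 of the 7 genes, against 16.4% of all tested genes, and P38α+/- array 3 was the highest of its genotype for all 7, against 25.7%. The same array was also the highest of its genotype for 6 of 6 ATPases and 10 of 14 Psmd genes, and replicate 1 the lowest of both genotypes for 3 and 5 of them. The mean deviation of the ring from its own average was -0.21, -0.05 and 0.22 in P38α+/- arrays 1, 2 and 3 and -0.24, 0.16 and 0.11 in the P38α-/- arrays. The beta ring had another order, at 0.01, -0.23 and -0.13 against 0.21, 0.00 and 0.14. P38α+/- array 3 was the highest of its genotype for 2 of the 7 beta ring genes.

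The ATPases lay between these rings. Of 6 genes 5 were above 0, with a median log2 fold change of 0.13. Psmc3 (Rpt5) was the highest and read 4.28, 4.29 and 4.51 against 4.64, 4.62 and 4.84. All P38α-/- arrays were above all P38α+/- arrays, and a second probe, at 2.93, 2.54 and 2.97 against 3.24, 3.04 and 3.40, showed the same. The fold change was 0.34 ± 0.15 for the first probe (log2, SE, limma adjusted p = 0.266) and 0.41 ± 0.19 for the second (adjusted p = 0.277). Psmc2 (Rpt1) was the lowest, at 2.27, 2.33 and 2.68 against 2.15, 2.51 and 2.52, a difference of -0.03 ± 0.19 (log2, SE, limma adjusted p = 0.944).

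Among the 14 Psmd genes, 8 were above 0 and 6 below, with a median log2 fold change of 0.07. The ends of this class were not built into the particle but are chaperones that help to assemble its base. Psmd5 read 0.48, 0.30 and 0.72 in P38α+/- and 0.79, 0.97 and 1.13 in P38α-/-, with no overlap, and differed by 0.46 ± 0.18 (log2, SE, limma adjusted p = 0.224). Psmd10 (gankyrin) read -1.34, -1.08 and -0.63 against -1.74, -1.15 and -1.52, with overlap, and differed by -0.45 ± 0.25 (adjusted p = 0.347), while a dimmer probe gave -0.11 ± 0.27. The third chaperone, Psmd9, differed by -0.28 ± 0.16 (log2, SE, limma adjusted p = 0.379).

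The structural members of the lid and base ranged from -0.17 for Psmd14 (Rpn11), the deubiquitinase of the lid, to 0.31 for Psmd3 (Rpn3). The scaffold Psmd2 (Rpn1) differed by 0.29, and the ubiquitin receptor Psmd4 (Rpn10) by -0.05. The probes of Psmd12 (Rpn5) differed in sign. The brighter one read 1.28, 1.45 and 1.84 against 1.52, 1.62 and 1.78 (0.12 ± 0.20, log2, SE, limma adjusted p = 0.771), and the dimmer one read -1.50, -1.41 and -1.33 against -2.03, -1.81 and -1.68 with no overlap (-0.42 ± 0.16, adjusted p = 0.210). Of the 11 member genes with more than 1 tested probe, 9 had probes of a single sign, and the exceptions were Psmd12 and Psmg1.

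Of the activators that open the core without ATP, Psme1 and Psme2 form PA28αβ, which interferon also induces. Psme1 read 1.17, 0.88 and 0.64 in P38α+/- and 1.13, 0.49 and 0.57 in P38α-/-, with overlap (-0.16 ± 0.24, log2, SE, limma adjusted p = 0.744). Psme2 read 1.29, 1.65 and 1.67 against 1.80, 2.00 and 1.73, with every P38α-/- array higher (0.31 ± 0.18, adjusted p = 0.365). A dimmer Psme2 probe read 0.04, -0.02 and 0.18 against 0.51, 0.35 and 0.53 and differed by 0.40 ± 0.15 (log2, SE, limma adjusted p = 0.203). Psme2 thus lay on the other side of 0 from Psmb8, Psmb9 and Psmb10, a difference that was not tested. Psme2 has a near-identical copy, Psme2b, whose transcripts these probes could also bind.

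Psme3 (PA28γ), the nuclear activator, read -0.03, 0.30 and 0.37 against -0.03, 0.12 and 0.06, a difference of -0.16 ± 0.17 (log2, SE, limma adjusted p = 0.620). Psme4 (PA200) read -1.78, -1.60 and -1.34 against -1.98, -1.21 and -1.59 (-0.02 ± 0.24, adjusted p = 0.973). Neither gene separated the genotypes. The inhibitor Psmf1 (PI31) read 1.03, 0.48 and 0.94 against 1.25, 0.91 and 1.14 and differed by 0.28 ± 0.20 (log2, SE, limma adjusted p = 0.474), with overlap.

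All 4 assembly factors, which guide the formation of the alpha ring, were below 0, with a median of -0.18, though this median was 0.30 with the 75th percentile over all probes and 0.02 with spike-in centring. Psmg4 was the lowest and read -3.48, -3.91 and -4.82 in P38α+/- and -4.45, -4.44 and -5.29 in P38α-/-. In both genotypes array 3 was the lowest, and P38α+/- array 3 lay under P38α-/- arrays 1 and 2. The fold change was -0.65 ± 0.41 (log2, SE, limma adjusted p = 0.401), but between -0.45 and -0.17 under the other scalings. Psmg3 was the highest and read -0.58, -0.69 and -0.80 against -0.50, -0.75 and -0.90 (-0.03 ± 0.17, adjusted p = 0.950), and its sign changed with the scaling.

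Counted over all members, 6 genes had every P38α-/- array above every P38α+/- array: Psmb4, Psmb5, Psmb6, Psmc3, Psmd5 and Psme2. This was 12.8% of the 47, against 7.44% of all tested genes. The sources speak of pairs of mice, and same-numbered arrays deviated together. With the replicate number as a block, 7 members reached an unadjusted p of at most 0.05 in limma (14.9%, against 27.2% of all tested genes). They were Psmb5, Psmb8, Psmb9, Psmb10, Psmc3, Psmd5 and Psmg4, and 0 of them passed the adjusted threshold.

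**Figure D3:**
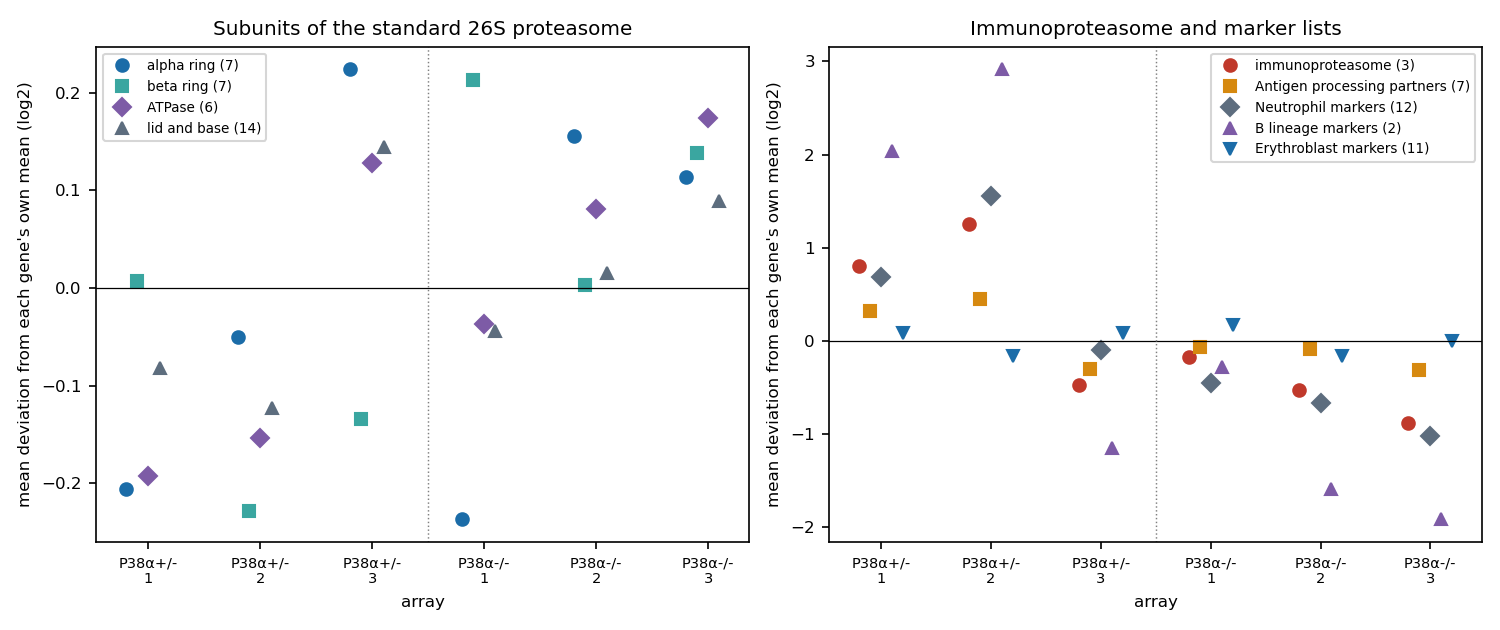
Mean deviation of each class or list from each gene's own mean over the 6 arrays (log2), with the number of genes in parentheses. Lists hold their members well above background on all 6 arrays, and activators and assembly factors are not drawn. On the left, the 4 classes stay within 0.24 of their mean. On the right, the immunoproteasome genes and the neutrophil and B lineage markers are above 0 in P38α+/- arrays 1 and 2 and below 0 in the other 4, while the erythroblast markers stay within 0.17.

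Markers of leukocytes, like Psmb8, Psmb9 and Psmb10, were highest in P38α+/- arrays 1 and 2, although the order of the other 4 arrays differed between the lists. The immunoproteasome genes deviated by 0.81, 1.25 and -0.47 in P38α+/- arrays 1, 2 and 3 and by -0.18, -0.52 and -0.89 in the P38α-/- arrays. The 12 neutrophil markers deviated by 0.69, 1.56 and -0.10 against -0.46, -0.66 and -1.03. All 12 were lower on average in P38α-/-, with a median log2 fold change of -1.32, and 10 of the 12 had every P38α-/- array below every P38α+/- array, as 19.7% of all tested genes did.

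Mpo, the granule peroxidase, had the lowest fold change of the neutrophil markers (-2.06 ± 0.61, log2, SE, limma adjusted p = 0.153). It read 3.37, 4.75 and 2.29 against 1.68, 1.65 and 0.91. The highest of them was Mmp9, at -0.83 ± 0.26 (adjusted p = 0.157). The summed neutrophil signal was 6.78 to 8.16 on the log2 scale in P38α+/- and 5.88 to 6.38 in P38α-/-. Of the 8 B lineage markers, 2 (Cd79b and Vpreb3) were well above background on all 6 arrays. They deviated by 2.04, 2.91 and -1.15 against -0.29, -1.59 and -1.92, with a summed signal of -3.64 to 0.34 against -4.47 to -2.66. Cd79b, part of the B cell receptor, read -1.16, -0.46 and -4.20 against -3.08, -4.81 and -5.19. P38α+/- array 3 lay within the range of the P38α-/- arrays for Cd79b.

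Of 9 monocyte or macrophage markers, 5 were measured on all 6 arrays, with a median log2 fold change of -0.91 and a summed signal of -0.56 to 0.74 against -1.19 to -0.39, and Mrc1 was well above background on 0 arrays. Of 8 T or NK markers, 3 were measured on all 6 arrays, with a median of -0.32 and a summed signal of 0.05 to 1.53 against -0.26 to -0.09. The 4 tested megakaryocyte markers had a median of 0.28 and summed to 1.09 to 1.54 against 1.34 to 1.76, with Gp1bb and Ppbp well above background on 0 arrays. They were split. Pf4 was at -1.42 ± 0.51 (log2, SE, limma adjusted p = 0.197), with every P38α-/- array lower. The others were above 0, up to 0.52 ± 0.27 for Vwf (adjusted p = 0.325).

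The 11 erythroblast markers measured, among them Gata1, Klf1, Alas2, Slc4a1 and Tfrc (CD71), were well above background on all 6 arrays. They had a median log2 fold change of 0.00, with a summed signal of 9.22 to 9.87 against 9.19 to 9.93. A summed signal adds linear signals, so the brightest probe of a list weighs most. For the erythroblast list this was Hba-a1 (8.21 to 9.27 over the arrays), and for the neutrophil list S100a9 (5.08 to 7.04). In sorted bulk RNA, fewer cells of a type and less RNA per cell cannot be told apart, and the part of leukocyte RNA in the immunoproteasome values was not tested.

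Other genes of antigen processing were split. Of the 10 listed genes 7 were well above background on all 6 arrays, with a median log2 fold change of -0.23. Tap2 and Tapbp were above 0 and the others of these 7 below. Among them 0 passed the adjusted threshold and 1, B2m, reached an unadjusted p of at most 0.05, which 20.1% of all tested genes did. The lowest of the 7 was Irf1, at -0.94 ± 0.44 (log2, SE, limma adjusted p = 0.279). Its groups overlapped, with P38α+/- array 3 just below P38α-/- array 2. B2m, the class I light chain, read 2.44, 2.39 and 1.47 against 1.31, 1.49 and 1.00 and differed by -0.83 ± 0.30 (log2, SE, limma adjusted p = 0.199), with P38α+/- array 3 just below P38α-/- array 2. Tap1, the peptide transporter subunit, and Nlrc5, the class I transactivator, were well above background on all 3 P38α+/- arrays but on 2 and 1 of the P38α-/- arrays, so they entered the test through the group where they were higher and no fold is given. Tap1 read -3.64, -3.78 and -5.20 against -5.35, -5.08 and -5.45. Tap2, the other transporter subunit, was the highest of the list at 0.23 ± 0.28 (adjusted p = 0.690).

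Promoter windows are described because Psmb9 and Tap1 lie head to head. Whether this bears on their signals was not tested. In RefSeq (GRCm38.p6), windows from 250 bases before to 50 bases after the annotated start share 275 of their 300 bases between Psmb9 and Tap1. Windows were found for 40 of the 48 proteasome genes, and the matches of 1 motif, on both strands, are given. The antioxidant response element TGACNNNGC, bound by NFE2L1 and NFE2L2, was in 12.5% of all 27025 promoters and in 6 of the 40 (Psmb5, Psmb6, Psmc6, Psmd9, Psmd12 and Psme4).

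The Psmb5 window, chr14:54617946-54618245 on the minus strand, holds a match 47 bases before the start. It is shown because Psmb5 had the highest fold change within the core, with the match in capitals.
Psmb5: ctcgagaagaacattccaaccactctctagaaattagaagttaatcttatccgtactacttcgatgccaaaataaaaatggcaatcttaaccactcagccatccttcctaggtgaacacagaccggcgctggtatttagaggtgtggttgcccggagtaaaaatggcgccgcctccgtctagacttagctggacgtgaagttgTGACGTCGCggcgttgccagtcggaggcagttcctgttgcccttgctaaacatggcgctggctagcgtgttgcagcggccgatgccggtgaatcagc
The genes with an antioxidant response element match had log2 fold changes from -0.28 (Psmd9) to 0.45 (Psmb5). A match is a string of letters in the window and was not tested as a binding site.

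Genes that work with the proteasome without being part of the name family were mostly flat. Of 19 tested partners 0 passed the adjusted threshold and 2 reached an unadjusted p of at most 0.05 (10.5%, against 20.1% of all tested genes), with a median log2 fold change of -0.05. Nfe2l1, the transcription factor that raises proteasome genes when the protease is blocked, was the lowest. It read -2.95, -3.73 and -3.58 in P38α+/- and -4.62, -4.36 and -4.54 in P38α-/-, with no overlap, and differed by -1.09 ± 0.24 (log2, SE, limma adjusted p = 0.105). Ecpas, an adaptor that tethers the proteasome, read -2.40, -1.80 and -1.91 against -3.31, -2.59 and -2.66 and differed by -0.82 ± 0.27 (adjusted p = 0.171), also with no overlap. The maturation factor Pomp (-0.01 ± 0.15) and the proteasome deubiquitinase Usp14 (0.07 ± 0.20) lay at 0 within their error, and the highest partner was Ufd1, at 0.16 ± 0.20 (log2, SE).

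Of 13 tested genes that supply ubiquitin 0 passed the adjusted threshold, and 1 reached an unadjusted p of at most 0.05 (7.69%, against 20.1% of all tested genes), with a median log2 fold change of -0.04. It was Uba1, the ubiquitin-activating enzyme, which read 2.82, 2.33 and 2.98 against 3.65, 3.06 and 3.51, with every P38α-/- array higher, and differed by 0.70 ± 0.25 (log2, SE, limma adjusted p = 0.190). The lowest of the list was Rps27a, a ubiquitin fusion gene, at -0.23 ± 0.17 (adjusted p = 0.482). Uba6 was not tested.

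The class medians moved with the scaling. With the 75th percentile taken over all probes, the median of all tested genes went from -0.14 to 0.34, and that of the beta ring from 0.20 to 0.68. Relative to the median of all tested genes, the beta ring was at 0.34 in both. The immunoproteasome median was below that of all tested genes by 0.80 in both, and lay between -0.88 and -0.70 relative to it under the 6 scalings. The alpha ring lay at 0.15 relative to that median, but at -0.05 with quantile normalization and at -0.03 in the authors' normalized table. In that table the column of P38α-/- array 2 had a Spearman correlation of 0.897 with its own scanner signals over all probes, and of 0.993 over the probes detected on every array.

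**Figure D4:**
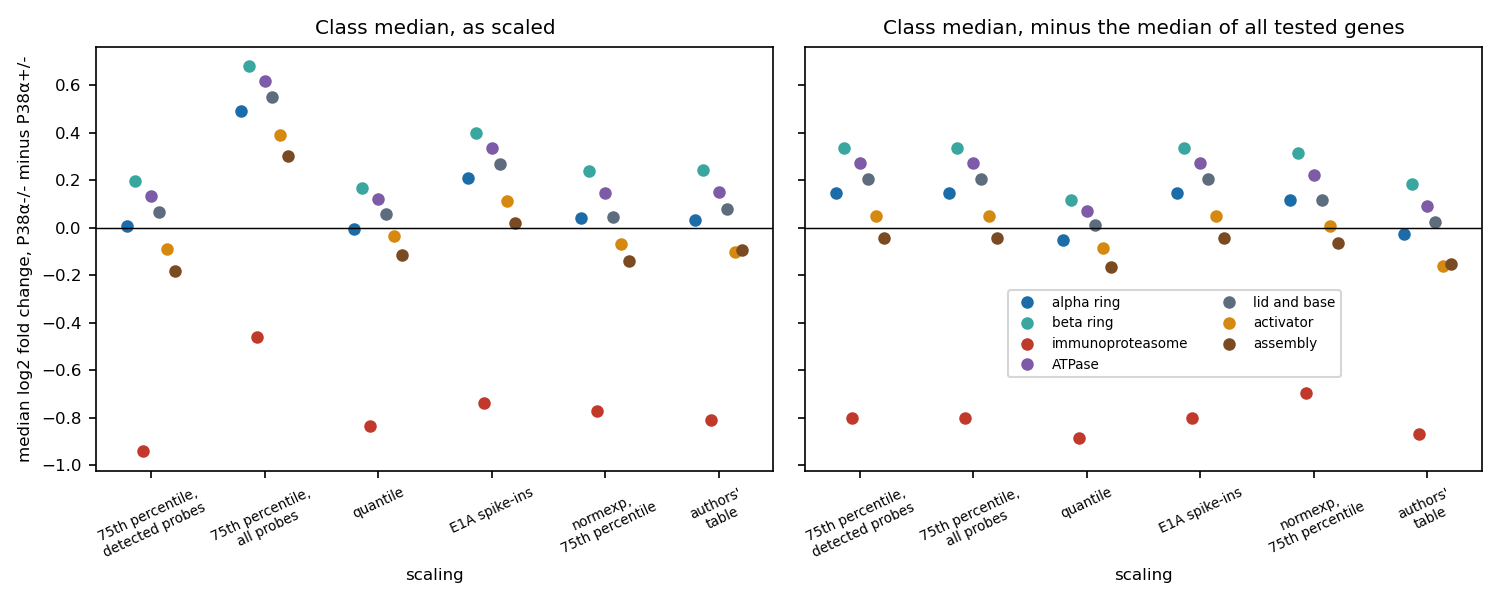
Median log2 fold change (P38α-/- minus P38α+/-) of each class under 6 ways of scaling the arrays, as scaled (left) and after the median of all tested genes was subtracted (right). The beta ring is the highest and the immunoproteasome the lowest class under all 6, and the alpha ring crosses 0 on the right.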

How the data were processed

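RNA of sorted bone marrow erythroblasts (10 ng per sample) was hybridised to 1-colour Agilent whole mouse genome arrays. The authors deposited 1 scanner file per array, in which Feature Extraction 10.7.3.1 gives each spot's background-subtracted signal as a linear intensity with no scaling between arrays. They also deposited a normalized table of intensity values, whose steps are not given in the sources used here. In these files 0 array columns were left without a sample. Groups and replicate numbers came from the sample titles. The members and gene lists were chosen with earlier results of these data known.

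Control spots and spots flagged as outliers were left out, spots of a probe were averaged, and no spot was saturated (0 spots). Log2 signals were centred per array on the 75th percentile of 15527 probes that stood well above background in every array. A probe was tested if it did so on the 3 arrays of either genotype (18769 probes, 14149 genes). The test was made with limma 3.58.1 in R 4.3.3, two-sided, with Benjamini-Hochberg adjustment over all of them. The script was tested on simulated data. Each gene is represented by its brightest tested probe. Genes were called at an adjusted p no higher than 0.05 and a fold of 2 or more. Per-array values are given for Psmb5 to Psmb10, Psme1 to Psme4, Psmf1, and the highest and lowest gene of every other class. Lists are described by counts and medians. The list genes given with values were chosen, and are not always the highest and lowest of their list.

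Same-numbered arrays of both genotypes deviated together, with correlations over probes of 0.39, 0.24 and 0.39 for numbers 1, 2 and 3. The sources also describe pairs of mice, so the number was used as a block in an alternative fit. The study's own t-tests were unpaired. Nothing ties a number to a shared litter or day. The number of arrays limits the precision. Other promoter motif searches are not reported here.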

Additional observations from a re-analysis of the deposited data

How the results depend on the processing

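Under all 18 alternative fits, 0 of the 47 member genes passed the adjusted threshold in limma or, in the methods' t-test, after adjustment. The count at an unadjusted p of at most 0.05 was 3. It was 10 with the 75th percentile over all probes, 0 with spike-in centring, 1 without a filter, 1 with the slide as a block (which leaves out P38α-/- array 3, alone on its slide), 6 with array weights and 5 with the methods' t-test. With the replicate number as a block (the pairing), it was 7. Leaving out 1 array gave 1 to 6, with 1 without P38α+/- array 1, P38α-/- array 2 or P38α-/- array 3 and 6 without P38α+/- array 3. The adjusted count stayed at 0.

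Genes with all P38α-/- arrays below numbered 1, and 2 under quantile normalization or in the authors' table. Leaving out 1 array, which makes separation easier, gave 1 to 6 (6 without P38α+/- array 3). Those with all P38α-/- arrays above numbered 6, 17 with the percentile over all probes, 0 with spike-in centring, and 6 to 13 with 1 array left out (13 without P38α-/- array 2, 11 without P38α+/- array 1 or 3).

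With the percentile over all probes, the class medians were 0.49 (alpha ring), 0.68 (beta ring), 0.62 (ATPases), 0.55 (lid and base), 0.39 (activators) and 0.30 (assembly), and the mean difference of Psmb5, Psmb6 and Psmb7 was 0.79. With spike-in centring, the medians were 0.40 (beta ring), 0.33 (ATPases), 0.27 (lid and base) and 0.11 (activators), and that difference was 0.50. The beta ring median was 0.31 with array weights. The immunoproteasome median was below 0 in every alternative that gave one.

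With 1 array left out, the median of the activators ranged from -0.12 to 0.024 and that of the immunoproteasome from -1.46 to -0.55.

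The sign of 12 of the 20 genes given by array held under every alternative: Psmb4 to Psmb10, Psmc3, Psmd5, Psme2, Psmf1 and Psmg4. The other 8 changed sign in at least 1. With the percentile over all probes, Psme1 was at 0.32, Psme3 at 0.32, Psme4 at 0.46, Psma4 at 0.38, Psmc2 at 0.45, Psmd10 at 0.028 and Psmg3 at 0.46. With spike-in centring, Psme1 was at 0.040, Psme3 at 0.038, Psme4 at 0.18, Psma4 at 0.095, Psmc2 at 0.17 and Psmg3 at 0.18. With quantile normalization, Psme4 was at 0.091 and Psmg3 at 0.023. Psme4 was at 0.031 with normexp, and at 0.025 with array weights, where Psmc2 was at 0.055. Psmg3 was at 0.068 with the slide as a block. With 1 array left out, Psmg3 ranged from -0.13 to 0.068, Psme4 from -0.21 to 0.17, Psmc2 from -0.11 to 0.095 and Psma5 from -0.0059 to 0.28. The causes were not tested. The number of arrays limits the precision, and the threshold of 2-fold leaves out smaller differences by construction. Signal over background limits the dim genes.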
